A study of Mus musculus with 4 samples.

Results

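Regions of accessible chromatin inside very long genes were examined in nuclei of forebrain interneurons. Members were the regions that held a peak of each of the 4 libraries, lay inside the body of a protein-coding gene of 300 kb or longer, and lay over 1 kb from any protein-coding gene start (GRCm38, GENCODE M21). The rule found 5271 internal regions among 46698 common regions, which are merged peaks present in every library, or 11.3% of them. Merging gave 28369 long-gene internal regions with a peak of any library, and the common ones made up 18.6% of them, against 21.4% in shorter genes. The common regions fell in 517 of the 567 long genes, out of 21951 protein-coding genes in all. Nuclei came from cortex and hippocampus of Dlx6aCre;Sun1/sfGFP mice at postnatal day 30, with 2 libraries per brain region, and GFP-positive, DAPI-positive nuclei were sorted. Dlx6aCre is a Cre line for forebrain GABAergic neurons and Sun1/sfGFP places a fluorescent protein on the nuclear envelope, so the sort takes nuclei with a history of Cre activity. Both brain regions share this genotype, there was no untreated or other control, and the labels do not say whether animals were pooled.

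Genes longer than 300 kb are a small class that is used heavily by neurons. Many encode synaptic adhesion proteins, ion channels, receptors and their scaffolds, and their introns hold enhancers, which are short stretches bound by transcription factors that act on a promoter at a distance. Forebrain interneurons descend mainly from the medial ganglionic eminence (MGE) or from the caudal ganglionic eminence (CGE). MGE neurons keep the transcription factor Lhx6, and many CGE neurons express Adarb2, a member of the ADAR family.

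The transposase used in the assay cuts open chromatin, and each deposited count is the number of cut sites in a peak of a nucleus. The 4 libraries held 32005984 to 117290059 cut sites in 2355 to 5576 nuclei. Cortex replicate 1 stood apart, with a median of 47236 cut sites per nucleus against 7352 to 14917 in the other libraries. Peaks were called separately in each library, and the 5271 regions were covered by 2431 kb of peaks in cortex replicate 2 but by 6034 kb in cortex replicate 1. In 29.2% of them peaks of each library covered at least 50% of the merged region, against 41.8% of all common regions. Pairs of libraries shared 11 to 47 barcodes. Pan-GABA genes (Gad1, Gad2, Slc32a1 and 4 Dlx genes) summed to 926 to 1222 CPM (cut sites scaled to counts per 1e6 of the library, here its common regions), while the excitatory markers summed to 32.8 to 59.2 CPM and 4 of these 6 genes had no common region. Oligodendrocyte markers summed to 190 to 229 CPM, microglial markers to 215 to 263 CPM, astrocyte markers to 104 to 131 CPM and endothelial markers to 62.0 to 83.2 CPM.

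Nuclei were divided by their cut sites in the Lhx6 and Adarb2 genes. A nucleus was Lhx6-high when its Lhx6 count was above, and its Adarb2 count below, the number its total would give, and Adarb2-high in the reverse case. This gave 633 to 1386 Lhx6-high and 427 to 1391 Adarb2-high nuclei per library, and the nuclei above or below in both genes were left out. The division was not the same measure in each library. Adarb2 was read from 4 peaks in cortex replicate 2 and from 58 in hippocampus replicate 1. Lhx6 was covered by 1994 bp of peaks in cortex replicate 2 and by 20061 bp in cortex replicate 1. The median nucleus held 0 cut sites of each gene in cortex replicate 2, against 6 (Lhx6) and 2 (Adarb2) in cortex replicate 1. Adarb2-high nuclei held 1649 Lhx6 cut sites in cortex replicate 1 and 0 in cortex replicate 2. In cortex replicate 2, 72.5% of nuclei were below in both genes, against 31.4% to 40.2% in the other libraries. The part of these differences between libraries in the interactions below was not tested. The median Lhx6-high nucleus was deeper than the median Adarb2-high nucleus in each library, for example 50394.5 against 45309 cut sites for cortex replicate 1. Of 7 other MGE markers 5 could be tested by their internal regions, and 4 were higher in Lhx6-high nuclei (Sox6, Satb1, Pvalb and Elfn1). Of 7 other CGE markers 4 could be tested, and 3 were higher in Adarb2-high nuclei (Npas1, Nr2f2 and Htr3a). The sum of pan-GABA genes was 894 to 1207 CPM in Lhx6-high and 960 to 1315 CPM in Adarb2-high nuclei, and it was higher in the Adarb2-high nuclei of 4 of 4 libraries. The endothelial sum moved the same way in 4 of 4 libraries, at 57.8 to 78.4 CPM in Lhx6-high and 67.6 to 92.1 CPM in Adarb2-high nuclei. The astrocyte sum (97.9 to 131 against 109 to 133 CPM) was higher in Adarb2-high nuclei in 3 of 4 libraries. The oligodendrocyte sum (173 to 240 against 175 to 217 CPM) was higher there in 2, and the microglial sum (213 to 263 against 207 to 265 CPM) and the excitatory sum (31.2 to 60.8 against 33.0 to 58.3 CPM) in 1 each. The part of other cell types in the differences below was not tested. In sums over nuclei, the number of nuclei of a subtype and accessibility per nucleus cannot be told apart.

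From the regions with the smallest p between the classes of nuclei, at most 1 per gene, 9 are shown, 5 higher in Lhx6-high and 4 higher in Adarb2-high nuclei, each as 300 bases of GRCm38 centred on the stretch that the peaks of all 4 libraries share. They are shown because the results below turn on them. Capitals mark matches, on either strand, to 13 short motifs that are listed with the motif shares. None of the 9 windows overlapped an annotated exon, and they were read from the GRCm38 assembly of NCBI RefSeq. The first 5 were higher in Lhx6-high nuclei.
Dlgap2, chr8:14689825-14690124, plus strand: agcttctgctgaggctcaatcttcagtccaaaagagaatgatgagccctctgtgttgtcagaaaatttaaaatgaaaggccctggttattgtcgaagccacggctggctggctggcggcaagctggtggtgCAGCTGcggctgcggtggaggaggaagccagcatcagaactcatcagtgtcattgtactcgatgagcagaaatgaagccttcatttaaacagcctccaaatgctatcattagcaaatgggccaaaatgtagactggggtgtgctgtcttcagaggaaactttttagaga
Psd3, chr8:67726058-67726357, plus strand: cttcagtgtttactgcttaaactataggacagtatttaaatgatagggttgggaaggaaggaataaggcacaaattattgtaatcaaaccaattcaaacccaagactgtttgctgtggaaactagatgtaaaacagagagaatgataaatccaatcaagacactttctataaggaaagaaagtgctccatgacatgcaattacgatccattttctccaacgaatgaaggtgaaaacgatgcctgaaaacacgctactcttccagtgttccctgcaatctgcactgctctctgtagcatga
Enox1, chr14:77580817-77581116, plus strand: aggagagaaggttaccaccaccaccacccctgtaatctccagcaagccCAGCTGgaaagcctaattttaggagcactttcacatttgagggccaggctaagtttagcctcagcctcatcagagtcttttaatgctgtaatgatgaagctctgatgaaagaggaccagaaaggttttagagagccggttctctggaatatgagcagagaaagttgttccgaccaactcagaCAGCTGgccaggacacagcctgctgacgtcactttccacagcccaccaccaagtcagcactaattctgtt
Frmd4b, chr6:97512847-97513146, plus strand: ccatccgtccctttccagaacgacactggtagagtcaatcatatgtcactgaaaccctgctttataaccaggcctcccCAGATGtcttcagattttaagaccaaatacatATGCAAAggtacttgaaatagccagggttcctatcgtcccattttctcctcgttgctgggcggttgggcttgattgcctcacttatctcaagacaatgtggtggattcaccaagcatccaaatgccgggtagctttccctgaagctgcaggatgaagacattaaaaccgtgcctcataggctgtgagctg
Iqsec1, chr6:90821870-90822169, plus strand: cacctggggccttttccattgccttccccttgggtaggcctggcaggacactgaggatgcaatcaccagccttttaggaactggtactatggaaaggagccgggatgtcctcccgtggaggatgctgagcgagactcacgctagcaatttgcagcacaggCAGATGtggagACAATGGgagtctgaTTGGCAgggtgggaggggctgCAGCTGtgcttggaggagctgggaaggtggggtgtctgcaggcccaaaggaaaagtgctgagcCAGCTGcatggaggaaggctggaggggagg
The other 4 were higher in Adarb2-high nuclei.
Csmd1, chr8:16057581-16057880, plus strand: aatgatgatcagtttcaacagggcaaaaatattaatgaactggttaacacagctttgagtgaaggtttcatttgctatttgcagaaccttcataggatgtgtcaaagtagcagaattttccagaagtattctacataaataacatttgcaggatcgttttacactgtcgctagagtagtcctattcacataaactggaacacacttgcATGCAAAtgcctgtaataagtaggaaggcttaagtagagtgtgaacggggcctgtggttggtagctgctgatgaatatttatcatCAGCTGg
Csmd2, chr4:128288171-128288470, plus strand: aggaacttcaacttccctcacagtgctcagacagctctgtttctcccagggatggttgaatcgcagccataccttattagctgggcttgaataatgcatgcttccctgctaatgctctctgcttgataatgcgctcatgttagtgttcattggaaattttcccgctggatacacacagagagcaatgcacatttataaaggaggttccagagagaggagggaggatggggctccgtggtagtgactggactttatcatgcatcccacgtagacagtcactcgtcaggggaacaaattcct
Nrxn3, chr12:88910931-88911230, plus strand: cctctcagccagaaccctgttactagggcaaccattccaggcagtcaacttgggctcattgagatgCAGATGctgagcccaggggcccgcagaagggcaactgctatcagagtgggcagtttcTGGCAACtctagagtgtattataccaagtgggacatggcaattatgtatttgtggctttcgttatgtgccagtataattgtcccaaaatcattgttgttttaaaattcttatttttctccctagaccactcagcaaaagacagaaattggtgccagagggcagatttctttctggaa
Sorcs1, chr19:50214521-50214820, plus strand: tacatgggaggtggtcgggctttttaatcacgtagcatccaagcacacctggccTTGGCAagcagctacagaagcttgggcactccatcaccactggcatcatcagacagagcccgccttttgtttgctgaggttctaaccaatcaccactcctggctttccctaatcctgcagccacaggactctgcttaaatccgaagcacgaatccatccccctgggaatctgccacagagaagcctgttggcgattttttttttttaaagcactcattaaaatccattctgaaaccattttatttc
The E-box words CAGATG or CAGCTG occurred in 4 of the first 5 and in 2 of the other 4 windows. The NFI word TTGGCA occurred in 1 of the first 5 (Iqsec1) and in 1 of the other 4 (Sorcs1). The windows of Psd3 and Csmd2 held none of the 13 motifs.

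Long genes differed widely in how many internal regions they held. The median long gene held 6, and the number rose only weakly with gene length (Spearman correlation of 0.21 across the 567 genes, which are not independent replicates). Among named genes Dlgap2, a postsynaptic scaffold, held 55 regions in 752 kb. Nav2, a cytoskeletal regulator of neurite growth, held 50, the splicing factor Rbfox1 46, the adhesion protein Ntm and the acid-sensing channel Asic2 44 each, and the receptor-type phosphatase Ptprn2 and the scaffold Ank3 42 each. Gabbr2, a subunit of the GABA-B receptor, held 42 regions in only 330 kb, or 12.7 per 100 kb against 7.32 in Dlgap2 and 3.01 in Rbfox1. The largest counts, 206 for Gm20388 and 74 for Fgfr2, belong to annotated spans of 4435 and 2961 kb that enclose 71 and 29 other protein-coding genes. No region was found in 50 long genes, the longest of which were Tenm1 (901 kb), Gm15155, Diaph2, Galnt13 and Pcdh11x.

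**Figure D1:**
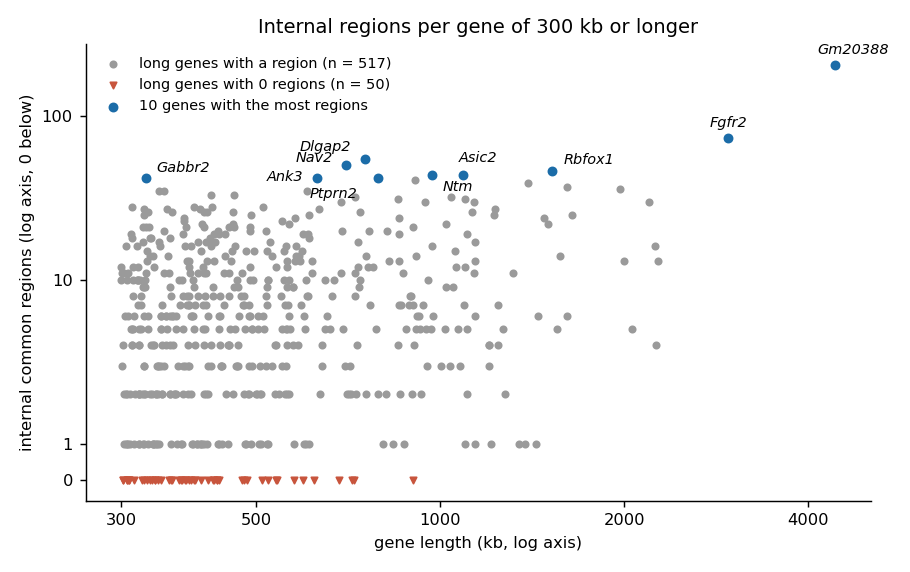
Number of internal common regions (y axis, log scale, 0 drawn below 1) against gene length in kb (x axis, log scale) for the 567 protein-coding genes of 300 kb or longer. Gabbr2 holds 42 regions at 330 kb, and 50 genes (triangles) hold 0.

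Internal regions lay far from promoters. The median distance from the start of the gene was 275 kb, and 67.2% lay over 100 kb from the start of any protein-coding gene, up to 1431 kb. They were spread along the gene body, with 17.9% in the first 20% of its length and 22.6% in the last 20%. An exon was overlapped by 11.3%, against 33.3% of internal regions of shorter genes, and 5.10% lay within 1 kb of an annotated start of some protein-coding transcript. Their median levels per library were 9.31 to 11.7 CPM, close to the 10.1 to 12.2 CPM of internal regions of shorter genes and below the 32.7 to 42.7 CPM of regions within 1 kb of a gene start. Per kb of covered peak the median was lowest in the library with the longest covered length (11.3 CPM per kb in cortex replicate 1) and highest in the one with the shortest (23.9 CPM per kb in cortex replicate 2).

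The share of common cut sites that fell in internal regions of long genes was 7.49% (replicate 1) and 6.43% (replicate 2) for cortex, and 8.11% (replicate 1) and 6.49% (replicate 2) for hippocampus. The brain regions overlapped. The means were 7.30% ± 1.14 (SD, n = 2) in hippocampus and 6.96% ± 0.746 (SD, n = 2) in cortex, a difference of 0.341 percentage points (exact permutation test, two-sided, p = 0.667, where the smallest possible p is 0.333). That difference was -0.467 points without hippocampus replicate 1, -0.187 without cortex replicate 2, 0.869 without cortex replicate 1 and 1.15 without hippocampus replicate 2. Within each library the share was higher in Lhx6-high than in Adarb2-high nuclei, 7.58% against 7.40% and 6.55% against 6.36% in cortex and 6.69% against 6.49% in hippocampus replicate 2. In hippocampus replicate 1 it was 8.24% in Lhx6-high nuclei, 0.235 points above Adarb2-high nuclei. The mean difference was 0.202 points ± 0.0234 (SD, n = 4), in the same direction in 4 of 4 libraries (exact sign-flip permutation test, two-sided, p = 0.125, the smallest that 4 libraries can give).

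The first comparison asked whether internal regions of long genes differed between hippocampus and cortex. By edgeR 0 of 5271 passed an adjusted p of 0.05, as did 0% of all 46698 common regions, and 591 had an unadjusted p under 0.05 (11.2%, against 8.14% of all common regions). DESeq2 called 42, or 0.797% against 0.754% of all common regions. Of the 42, 28 were higher in hippocampus and 14 in cortex, where 0.557% and 0.197% of all common regions were. In simulated data for this comparison edgeR found none (0 of 100) of the simulated 2-fold changes and 31 of 100 of the 4-fold ones, beside 22 false calls. A fit of this comparison without 1 library leaves a single library in 1 brain region. The calls of such fits are listed only with the dependence on the processing, and no conclusion is drawn from them.

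Of the 6 internal regions named for this comparison, 3 had higher and 3 had lower levels in hippocampus. The region in Cacna2d3, which encodes a calcium channel subunit, measured 13.6 and 12.9 CPM in cortex and 56.5 and 46.6 CPM in hippocampus (log2 difference 1.95 ± 0.24 SE). The region in the phosphatase gene Ptprt measured 5.39 and 4.45 CPM in cortex and 24.0 and 21.1 CPM in hippocampus (2.19 ± 0.28). The region in Msra measured 6.58 and 5.41 CPM in cortex against 27.6 and 25.5 CPM (2.14 ± 0.26). For all 3 both hippocampus libraries lay above both cortex libraries. The regions were picked by the smallest p of this comparison, so this separation is no further support. The length covered by peaks moved with the level, from 644 bp in cortex replicate 2 to 2185 bp in hippocampus replicate 1 for Cacna2d3. With covered length as an offset in the fit the log2 differences were 0.70 for Cacna2d3 and 1.00 for Msra. In that fit none of the 3 regions, Ptprt included, had an unadjusted p under 0.05. Only 0.0128% of all common regions had one there, so its p-values decide nothing about these 3. In the opposite direction stood regions in Cdh13, an adhesion molecule anchored by a lipid (18.1 and 19.4 CPM in cortex, 5.56 and 3.46 CPM in hippocampus, log2 difference -2.04 ± 0.34), in 5730522E02Rik (-2.29 ± 0.36) and in Gm37240 (-2.24 ± 0.37). For each of the 6 the edgeR adjusted p was 0.409, and DESeq2 called all 6.

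Sums over the internal regions of each long gene gave the same count, with 0 of 517 genes called by edgeR (0% of 7036 genes with an internal region). An unadjusted p under 0.05 was reached by 41 (7.93%, against 7.94% of all genes). DESeq2 called 5 (0.967%, against 0.682% of all genes). The gene with the smallest p higher in hippocampus was the cadherin Cdh8, by its 1 region, with 27.4 and 24.2 CPM in cortex and 73.6 and 63.7 CPM in hippocampus (log2 difference 1.41 ± 0.27 SE, edgeR adjusted p = 0.576). Cacna2d3 summed over 20 regions to 703 and 688 CPM in cortex and 994.5 and 936.5 CPM in hippocampus (0.47 ± 0.12). Nkain2, Fam19a2, Pde11a and Stpg2 had log2 differences of 0.93, 0.61, 0.55 and 1.07. On the cortical side Hs6st3, a heparan sulfate sulfotransferase, summed to 211 and 189 CPM in cortex and 122 and 114 CPM in hippocampus (-0.77 ± 0.19). The guidance cue Sema3a had 110 and 68.5 CPM in cortex and 43.9 and 48.5 CPM in hippocampus (-0.95 ± 0.31). Cdh12, Tmem132c, Gm37240 and Kif26b had log2 differences of -0.83, -0.59, -0.49 and -0.45, and none of these genes passed the threshold. Scaling by covered length turned Cacna2d3 to -0.14, and restriction to regions at least 50% covered turned Kif26b to 0.28. With hippocampus and cortex compared inside a class, edgeR called 0 of 516 long genes in Lhx6-high nuclei and 0 in Adarb2-high nuclei. In Lhx6-high nuclei 59 had an unadjusted p under 0.05 (11.4%, against 8.74% of all genes). In Adarb2-high nuclei 36 had one (6.98%, against 6.45%). DESeq2 called 6 in Lhx6-high nuclei (1.16%, against 0.54% of all genes) and 0 in Adarb2-high nuclei (against 0.114% of all genes). By edgeR 0% of 7034 genes were called in each class.

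Adarb2 is itself a long gene (566 kb) with 2 internal regions, which were used to divide the nuclei and so are given only by brain region. They summed to 23.1 and 12.2 CPM in cortex and 44.7 and 35.9 CPM in hippocampus (log2 difference 1.18 ± 0.41 SE, edgeR adjusted p = 0.591).

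The second comparison asked whether internal regions differed between Lhx6-high and Adarb2-high nuclei of the same library, on 8 sums with library as a block. By edgeR 1554 of 5269 internal regions tested passed the threshold (29.5%), against 20.2% of all 46688 regions tested. Of these 894 were higher in Lhx6-high and 660 in Adarb2-high nuclei, where 10.6% and 9.55% of all regions were. DESeq2 called 1671 (31.7%, against 21.8% of all regions). The share called was 21.3% for internal regions of shorter genes, 25.8% for regions outside protein-coding genes and 6.74% for regions within 1 kb of a gene start. Since deeper regions are easier to call, regions were also split by level. In 4 equal bins of rising level 23.7%, 30.0%, 35.2% and 30.9% of the internal regions of long genes were called, against 18.6%, 21.1%, 24.5% and 21.4% of internal regions of shorter genes. Regions outside protein-coding genes were not split by level, so the comparison at like level does not extend to them. The median log2 difference was 0.05 over the internal regions of long genes and -0.0087 over all regions tested. Among the 1540 regions at least 50% covered 574 were called (37.3%, against 19.2% of all such regions). After thinning nuclei to equal depth before the division 727 of 5241 were called (13.9%, against 9.27% of all regions), 634 of them shared. Thinning also left smaller classes, with 303 to 1078 Lhx6-high and 140 to 348 Adarb2-high nuclei per library. It divided nuclei by common regions only, and the part of each change in the lower count was not tested. Without the library block 0 were called, and 734 had an unadjusted p under 0.05 (13.9%, against 9.02% of all regions).

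**Figure D2:**
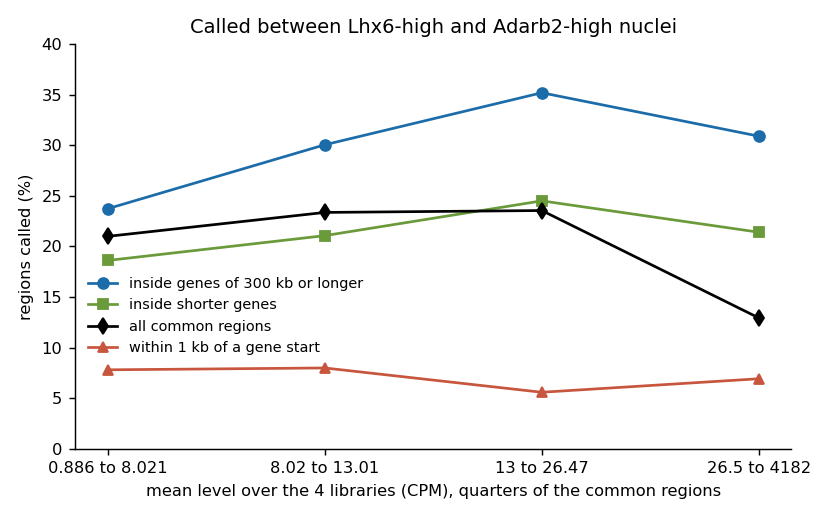
Share of regions called between Lhx6-high and Adarb2-high nuclei (y axis, %) in 4 equal bins of the common regions by mean CPM over the 4 libraries (x axis). Internal regions of long genes lie highest of the 4 sets plotted in each bin, at 23.7% to 35.2%, and regions near gene starts lowest. Regions outside protein-coding genes (25.8% called over all levels) are not plotted.

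The regions with the smallest p on the Lhx6-high side lay 105 to 595 kb from their gene starts. The Dlgap2 region measured 85.3, 83.8, 112 and 101 CPM in Lhx6-high nuclei of cortex replicates 1 and 2 and hippocampus replicates 1 and 2, and 57.1, 55.3, 67.3 and 65.1 CPM in Adarb2-high nuclei (log2 difference 0.64 ± 0.05 SE, edgeR adjusted p = 4.24e-06). The Frmd4b region, in a gene for a FERM-domain scaffold protein, measured 25.6, 34.5, 41.2 and 23.2 CPM against 9.74, 16.9, 14.2 and 11.7 CPM (1.26 ± 0.12, edgeR adjusted p = 1.07e-05). The Psd3 region, in a gene for an exchange factor of Arf GTPases, measured 29.9, 41.5, 50.5 and 31.4 CPM against 15.1, 14.2, 25.4 and 15.1 CPM (1.08 ± 0.10). For all 3 the lowest Lhx6-high value exceeded the highest Adarb2-high value. The regions in Enox1 (0.65 ± 0.06) and in Iqsec1, another Arf exchange factor found at synapses (0.70 ± 0.07), also did not overlap between the classes.

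Larger differences were found on the Adarb2-high side. A region of Csmd2, a gene for a large membrane protein with CUB and Sushi domains, measured 1.66, 0.739, 1.95 and 1.52 CPM against 10.9, 9.68, 10.5 and 7.89 CPM (log2 difference -2.56 ± 0.24 SE, edgeR adjusted p = 7.96e-06). In Nrxn3, which encodes a presynaptic adhesion receptor, a region 188 kb from the start measured 1.35, 4.43, 6.20 and 3.98 CPM against 8.17, 14.2, 20.5 and 16.5 CPM (-1.97 ± 0.19). These regions were low in Lhx6-high nuclei of each library and did not overlap between the classes, but they too were picked by the smallest p. The region in Sorcs1, which encodes a sorting receptor, differed by -1.74 ± 0.17 and the one in Csmd1, 1478 kb from its gene start, by -1.09 ± 0.09.

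**Figure D3:**
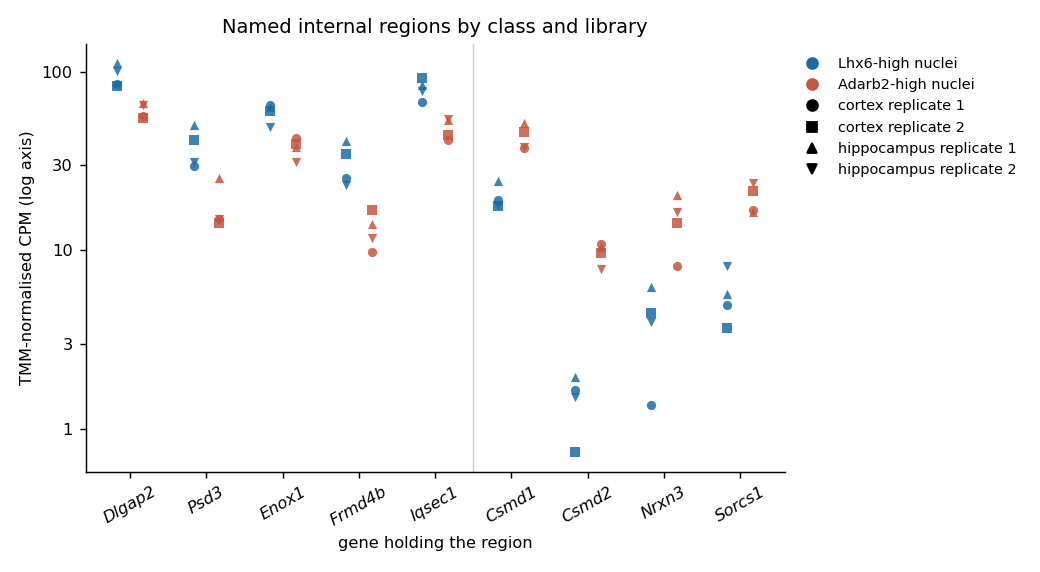
TMM-normalised CPM (y axis, log scale) of the 9 internal regions shown above as sequence, for Lhx6-high (blue) and Adarb2-high (red) nuclei, with a symbol per library. Within each region the 4 blue and the 4 red points do not overlap. The regions were picked by the smallest p between the classes, so the separation is no further support.

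Called regions of both directions occurred within single genes. Of 516 long genes tested, 211 held called regions in both directions, 130 only regions higher in Lhx6-high nuclei, 70 only regions higher in Adarb2-high nuclei, and 105 none. Genes with more regions more often held both directions, in long and in shorter genes. Among genes with 5 to 10 internal regions 36.25% of 160 long and 24.3% of 687 shorter genes held both, and among those with 11 to 20 it was 70.6% of 109 long and 50.0% of 154 shorter genes. Nrxn3 held 8 called regions in each direction among 37, with region differences from -1.97 to 0.83 on the log2 scale. Asic2 held 6 higher in Lhx6-high and 7 higher in Adarb2-high nuclei among 44, and Gabbr2 4 and 4 among 42. In contrast Dlgap2 held 19 and 1 among 55, the potassium channel gene Kcnma1 10 and 0 among 32, and Rbfox1 12 and 1 among 46. Gse1, which encodes a component of a histone-modifying corepressor complex, held 0 and 19 among 35, and the transcription factor gene Nfib 0 and 7 among 13.

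**Figure D4:**
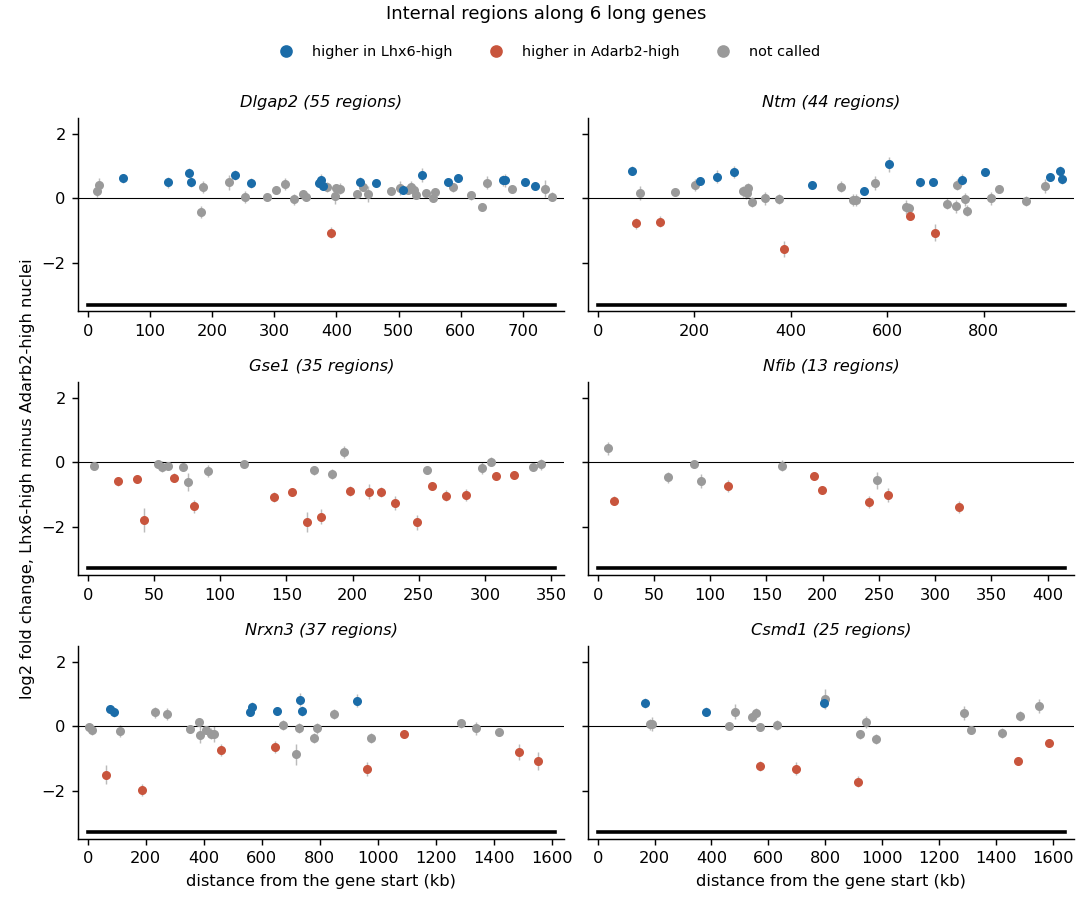
Log2 difference between Lhx6-high and Adarb2-high nuclei (y axis, with SE bars) of each internal region against its distance from the gene start in kb (x axis) in Dlgap2, Ntm, Gse1, Nfib, Nrxn3 and Csmd1. The black bar is the gene body. Called regions are all negative in Gse1 and Nfib, while Nrxn3 and Csmd1 hold called regions of both signs.

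Summed over the internal regions of each gene, 227 of 516 long genes were called by edgeR (44.0%), 130 higher in Lhx6-high and 97 higher in Adarb2-high nuclei, against 24.3% of the 7034 genes tested (12.8% and 11.5% by direction). DESeq2 called 196 (38.0%, against 18.4% of all genes). A long gene sums more regions than most genes, and no correction for that was made. After thinning 103 of 515 long genes were called (20%, against 10.6% of all genes). Without the library block 0 were, with 76 at an unadjusted p under 0.05 (14.7%, against 8.86% of all genes). Sox6, a transcription factor of the MGE lineage, had the smallest p on the Lhx6-high side, with 572, 257, 265 and 326 CPM in Lhx6-high nuclei of cortex replicates 1 and 2 and hippocampus replicates 1 and 2 and 314, 181, 163 and 193 CPM in Adarb2-high nuclei (log2 difference 0.74 ± 0.06 SE, edgeR adjusted p = 3.84e-06). The groups overlapped across libraries, while within each library the Lhx6-high value was higher. The other 5 genes named on this side were utrophin (Utrn, 0.45 ± 0.04), Dlgap2 (0.28 ± 0.03), the contactin-associated protein gene Cntnap5a (0.63 ± 0.07), the zinc finger gene Zfp385b (0.42 ± 0.05), and Enox1 (0.34 ± 0.04).

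On the Adarb2-high side Gse1 had the smallest p, with 1594, 1793, 1405 and 1865 CPM in Lhx6-high and 2407, 2398, 1940 and 2551 CPM in Adarb2-high nuclei (log2 difference -0.48 ± 0.04 SE, edgeR adjusted p = 7.63e-07), and the classes did not overlap. Nfib measured 387, 302, 363 and 513 CPM against 711, 457, 546 and 741 CPM (-0.66 ± 0.06, edgeR adjusted p = 3.84e-06). Sorcs1 differed by -0.80 ± 0.09, Arhgef28, a gene for a guanine nucleotide exchange factor, by -0.59 ± 0.07, Fstl4 by -0.57 ± 0.08 and the span of Gm20388 by -0.19 ± 0.02. That span encloses Gse1, so all 35 regions of Gse1, 19 of them called, are also among its 206 regions. All 12 genes named here kept their direction under each alternative that gave a value. Without the library block none passed the threshold, and Arhgef28 did not pass with regions at least 50% covered (-0.22, edgeR adjusted p = 0.0544).

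Most function lists held calls in both directions. Of all 516 long genes 25.2% were higher in Lhx6-high and 18.8% in Adarb2-high nuclei, and the counts below stand beside these shares with no test. Medians below are over the gene sums tested, beside 0.03 over the 516 long genes and -0.00099 over all 7034 genes. Of 44 synaptic adhesion genes 12 (27.3%) were higher in Lhx6-high nuclei, among them Ntm (0.23), Lsamp (0.27), Tenm2 (0.17) and Cntnap4 (0.47). In the same list 7 (15.9%) were higher in Adarb2-high nuclei, among them Lrrtm4 (-0.94), Csmd3 (-0.78) and Nrxn3 (-0.11), and the median was 0.12. Of 13 cadherins and catenins 5 were higher in Lhx6-high nuclei (Cdh13, Fat3, Cdh18, Pcdh9 and Cdh8) and 1, Cdh4, in Adarb2-high nuclei (-0.19), with a median of 0.17.

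Of 13 glutamate receptor genes 5 (38.5%) were higher in Lhx6-high nuclei and 0 in Adarb2-high nuclei, with a median of 0.07. Among them were the metabotropic receptors Grm7 (0.34) and Grm8 (0.73) and the AMPA receptor subunit Gria1 (0.17). Of 4 GABA receptor genes only Gabrg3 was called (0.28), and the median was -0.04. Of 24 ion channel genes 5 were higher in Lhx6-high nuclei, including Kcnma1 (0.27) and Kcnd2 (0.48). In Adarb2-high nuclei 4 were higher, namely the calcium channel Cacna1c (-0.18) and the potassium channels Kcnh1, Kcnq5 and Kcnt2 (-0.23, -0.24 and -0.83), and the median was -0.06.

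Of 30 transcriptional regulators 14 (46.7%) were higher in Adarb2-high and 7 (23.3%) in Lhx6-high nuclei, with a median of -0.14. Beside Nfib the 14 held its relative Nfia (-0.44), Zfhx3 (-0.47), the mineralocorticoid receptor Nr3c2 (-0.59), the Notch coactivators Maml2 (-0.38) and Maml3 (-0.23), Tcf4 (-0.13) and Npas3 (-0.27). Beside Sox6 the 7 held the nuclear receptors Rarb (0.33), Esrrg (0.31) and Thrb (0.19). Of 16 axon guidance genes 6 were higher in Lhx6-high nuclei, including Sema3a (0.51) and Slit3 (0.23), and 3 in Adarb2-high nuclei, Robo2 (-1.48), Ephb1 (-0.61) and Plxna4 (-0.15), with a median of 0.14. Of 39 genes for scaffolds, growth factor signalling and release 9 were higher in Lhx6-high nuclei, among them the ErbB ligand Nrg3 (0.44), and 12 in Adarb2-high nuclei, among them its receptor Erbb4 (-0.45), with a median of 0.04. Of 6 RNA-binding protein genes tested Rbfox1 (0.22) and Celf2 (0.14) were higher in Lhx6-high and Rbfox3 (-0.13) in Adarb2-high nuclei, with a median of -0.0026. Of 2 long MGE-lineage genes Sox6 was called and Nxph1 measured 0.18 (edgeR adjusted p = 0.0675). The only long CGE-lineage gene was Adarb2 itself. Of 6 long genes that mark other cell types Tnr and Lhfpl3 were higher in Lhx6-high and Ebf1 and Luzp2 in Adarb2-high nuclei.

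The difference between classes was then compared between the brain regions. By edgeR 180 of 5269 internal regions had an interaction of class and brain region (3.42%, against 2.47% of all regions), and in 173 of them the difference Lhx6-high minus Adarb2-high was more positive in hippocampus (2.33% of all regions) and in 7 less positive (0.143%). DESeq2 called 29, all in the first direction, or 0.550% against 0.45% of all regions (0.448% in that direction). Leaving out cortex replicate 1 gave 35 (0.664%, against 0.448% of all regions) and cortex replicate 2 gave 319 (6.05%, against 4.69%). Leaving out hippocampus replicate 1 gave 77 (1.46%, against 1.01%) and hippocampus replicate 2 gave 72 (1.37%, against 1.04%). For sums over internal regions 12 of 516 long genes were called (2.33%, against 1.21% of all genes), 11 of them more positive in hippocampus (1.14% of all genes) and 1 less positive (0.0711%).

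In Sorcs3, a sorting receptor gene with 5 internal regions, Lhx6-high nuclei measured 62.0 and 54.7 CPM in cortex and 134 and 155 CPM in hippocampus, and Adarb2-high nuclei measured 260 and 281 CPM in cortex and 298 and 323 CPM in hippocampus (interaction 1.04 ± 0.14 SE on the log2 scale, edgeR adjusted p = 0.00081). Hs3st4, a heparan sulfate sulfotransferase gene with 2 internal regions, was named after its values were seen, as it had the smallest p. In it Lhx6-high nuclei measured 37.6 and 43.7 CPM in cortex and 106 and 118 CPM in hippocampus, and Adarb2-high nuclei 94.5 and 94.8 CPM in cortex and 77.0 and 75.5 CPM in hippocampus (1.80 ± 0.20, edgeR adjusted p = 0.000112). The order of the classes in Hs3st4 was thus opposite in the brain regions in all 4 libraries, while in Sorcs3 the Adarb2-high nuclei were higher in both.

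Motifs were searched on both strands of the 300 bases at the centre of each common region, and a match is a description of the letters only. Beside all common regions, the internal regions of long genes held AP-1 (TGANTCA) in 17.8% against 13.1%, homeobox (TAATTA) in 10.3% against 6.06%, Mef2 (AAAATAG) in 8.82% against 6.05% and POU (ATGCAAA) in 8.08% against 5.74%. All common regions include those near gene starts. In regions outside protein-coding genes the same words occurred in 16.3%, 8.15%, 8.17% and 7.79%, and in internal regions of shorter genes in 15.1%, 6.14%, 6.46% and 5.49%. The GC-rich CTCF word (AGGGGGC) occurred in 4.63% against 8.94% of all common regions and 7.33% outside genes, and the Egr word (GTGGGCG) in 1.69% against 5.32% and 2.62%. Base composition moved with these shares, as the median GC content was 48.7% in internal regions of long genes, 51.7% in those of shorter genes, 49.7% outside protein-coding genes and 65.7% near gene starts.

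The 894 internal regions higher in Lhx6-high nuclei and the 660 higher in Adarb2-high nuclei held different motifs. The NFI word TTGGCA, bound by the family of Nfib and Nfia, occurred in 15.0% of the former and 37.1% of the latter, against 20.3% of the 3715 that were not called. The Sox word ACAATGG occurred in 2.35% and 8.03%, the homeobox word in 9.84% and 15.6% and the Rfx word (GTTGCCA), which can share bases with the NFI word, in 2.57% and 6.67%. In the opposite direction the AP-1 word occurred in 27.4% and 13.2%, the E-box words CAGCTG in 50.3% and 34.8% and CAGATG in 43.8% and 32.6%, and the Ror word (TAGGTCA) in 3.13% and 0.909%. The Meis word (TGACAG) was near 25% in both, at 25.8% and 25.2%. The median GC content was 46.3% on the Lhx6-high and 48.7% on the Adarb2-high side. The same split of internal regions of shorter genes gave close shares for the NFI word (15.3% and 36.5%) and the AP-1 word (26.2% and 11.5%). The homeobox word (8.60% and 10.0%) and the Ror word (2.39% and 2.21%) differed less between the sides there than in long genes. No test was made on these shares, since neighbouring regions are not independent.

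**Figure D5:**
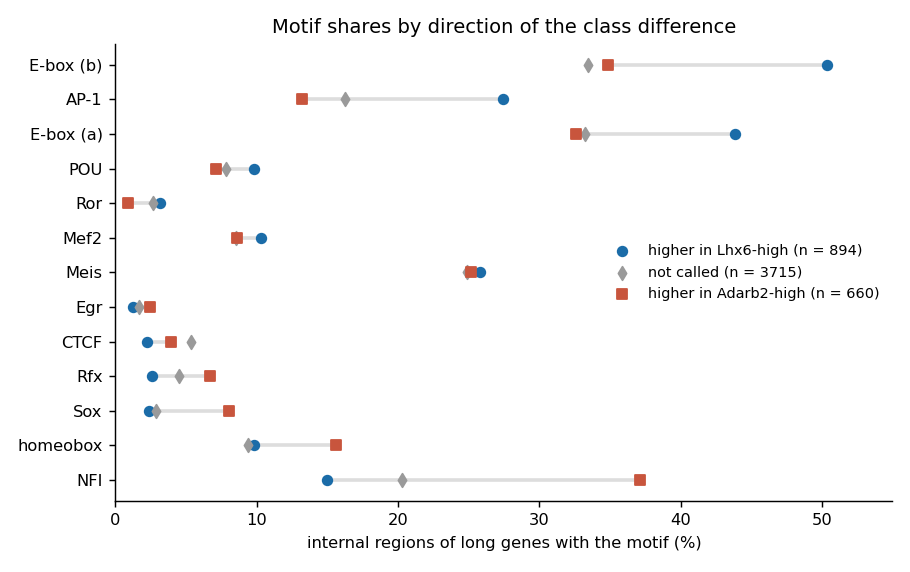
Share of internal regions of long genes (x axis, %) whose central 300 bases hold each motif (y axis), for regions higher in Lhx6-high nuclei (blue), regions not called (grey) and regions higher in Adarb2-high nuclei (red). E-box (a) is CAGATG and (b) CAGCTG. The NFI share is highest on the Adarb2-high side (37.1%) and the AP-1 share on the Lhx6-high side (27.4%).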

How the data were processed

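Nuclei were profiled by single-nucleus ATAC-seq on the 10x Chromium platform. The deposited counts are whole numbers of transposition cut sites per peak and nucleus, made by the authors with Cell Ranger ATAC 1.2.0 on GRCm38/mm10 according to the submitters' processing notes. Peaks were called by the authors in each library separately, so covered length differs between libraries, and the peak settings are not given in the sources used here. The deposited motif tables were not used, and 0 columns lacked a sample. The labels do not say that libraries came from separate animals, so p-values between brain regions measure the spread between these libraries, which may be technical. With library as a block, p-values of the class and interaction fits measure the spread of the class difference between these libraries, which may also be technical.

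Peaks overlapping by 1 bp were merged, and counts were summed over nuclei per library, or per library and class, since nuclei are not replicates. Genes came from the GENCODE M21 annotation, whose build was checked against the peak coordinates. The members, the function lists and the tests were chosen with earlier results of these data known. For the classes, the cut sites in a library's peaks inside each gene and 2 kb upstream were compared with the nucleus total times the library's share for that gene, and regions of Lhx6 and Adarb2 were left out of the class fits. All nuclei deposited were kept. Doublets were not called, but nuclei above in both genes were left out. Tests used edgeR 4.0.16 (quasi-likelihood, robust, TMM, filterByExpr, prior count of 2) across all common regions, or all genes, with Benjamini-Hochberg adjustment at 0.05, and DESeq2 1.42.0 as the alternative, in R 4.3.3. Levels are TMM-normalised CPM. Single shares were compared by exact permutation (scipy 1.17.1).

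Named were the 10 long genes with the most regions, the 5 longest with none, the 6 gene sums with the smallest p per direction and contrast, the 5 (class) or 3 (brain region) regions with the smallest p per direction at most 1 per gene, and members of the function lists. A few of the items so named are not reported here. Motif windows were 300 bases centred on the longest stretch covered by peaks of every library. The brain region and class models, for regions and for gene sums, were tested on simulated counts with 200 features changed 2-fold or 4-fold. The interaction models and the brain region models within a class were not simulated. In the simulated gene sums between brain regions 27 of 100 2-fold and 68 of 100 4-fold changes were recovered beside 9 false calls, and in the simulated class contrast 99 of 100 regions (22 false calls) and 98 of 100 genes (15 false calls) changed 2-fold. Alternatives were the size factors, the filter, covered length as offset, coverage of at least 50%, gene length of at least 500 kb, other class rules (among them thinning to 2000 cut sites), blocks, and each library left out. Intervals cover only the spread between libraries, or, in the fits with library as a block, the spread of the class difference between libraries.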

Additional observations from a re-analysis of the deposited data

Results flagged for a closer look

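In the long genes below the difference Lhx6-high minus Adarb2-high itself differed between hippocampus and cortex in edgeR's interaction test on gene sums. The smallest p-values were those of Hs3st4 (1.80 on the log2 scale, edgeR adjusted p = 0.000112) and Sorcs3 (1.04, edgeR adjusted p = 0.00081), whose levels are given above. Prex2 gave 2.01, but its 1 region had 0 CPM in both classes of cortex replicate 2, so the cortex value rests on replicate 1 (5.32 CPM in Lhx6-high and 53.5 CPM in Adarb2-high nuclei). Trhde (1.88) and Egfem1 (1.197) also rest on 1 region each. In Trhde Lhx6-high nuclei measured 4.88 and 2.91 CPM in cortex and 21.5 and 15.3 CPM in hippocampus, while Adarb2-high nuclei measured 27.3, 19.3, 31.9 and 21.7 CPM.

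Smaller interactions were found for Caln1 (0.55), Alk (0.53), Lrrc4c (0.39), Slc2a13 (0.38), Grik4 (0.37) and Gabbr2 (0.24). Npas3 gave -0.36, the only negative value among the 12 genes. In Gabbr2 Adarb2-high nuclei were higher in both cortex libraries (2469 and 2323 CPM against 2344 and 2012 CPM) and lower in both hippocampus libraries (1840 and 1540 CPM against 1950 and 1696 CPM).

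The regions with higher levels in hippocampus in Ptprt (1.43), Msra (1.24) and Cacna2d3 (0.82) also had an interaction in edgeR. In the Msra region Lhx6-high nuclei measured 4.86 and 2.77 CPM in cortex and 30.3 and 27.7 CPM in hippocampus, and Adarb2-high nuclei measured 9.22 and 5.14 CPM in cortex and 25.3 and 20.3 CPM in hippocampus. The cortex libraries differ most in depth and in the share of nuclei below in both genes. That share was 31.4% and 72.5% in cortex and 38.8% and 40.2% in hippocampus. The peaks used to divide the nuclei also differ between libraries, as given above. The part of these differences in the interactions was not tested.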

How the results depend on the processing

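Between brain regions, DESeq2 in place of edgeR gave 42 internal regions and 5 long genes where edgeR gave 0, and 6 long genes within Lhx6-high nuclei. Leaving out 1 library gave 0 to 523 regions, 0 to 7 long genes, 0 to 9 long genes within Adarb2-high nuclei (the highest of each without cortex replicate 1), and a difference in the share of cut sites from -0.467 to 1.15 percentage points, with values below 0 without cortex replicate 2 or hippocampus replicate 1. The fits without 1 library leave a single library in 1 brain region, so no conclusion is drawn from their counts. The calls without cortex replicate 1 were not confined to long genes. Regions at least 50% covered gave 2 long genes (0.466%, against 0.220% of all genes). Within Lhx6-high nuclei they gave 8 (1.86%, against 1.10%). Covered length as offset turned Cacna2d3 to -0.14, and the 50% coverage rule turned Kif26b to 0.28. The cause was not tested.

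Between classes, 1554 regions and 227 long genes became 727 and 103 after thinning. In genes of 500 kb or longer (fewer tested) 851 (31.2%) and 103 (47.2%) were called, where 20.2% of all regions and 24.3% of all genes were. Without the library block 0 and 0 were called. In that fit 734 regions (13.9%, against 9.02% of all) and 76 genes (14.7%, against 8.86% of all) had an unadjusted p under 0.05. The 50% coverage rule gave 574 of 1540 regions tested (37.3%, against 19.2% of all such regions). Leaving out 1 library gave 1087 to 1259 regions (20.7% to 23.9%, against 14.4% to 15.9% of all regions). In the same fits 158 to 192 genes were called (30.6% to 37.2%, against 15.5% to 19.5% of all genes). Chosen after seeing the data, classes from common regions gave 1311 regions (24.9%, against 16.6% of all) and 206 genes (39.9%, against 20.998% of all). Also chosen so, the exclusion of predicted models gave 1503 and 225, and the exclusion of long genes holding 5 or more others 1483 and 223. These exclusions left the shares of all regions (20.2%) and of all genes (24.3%) as they were. For the interaction, 3.70% of internal regions were called with 50% coverage, against 1.97% of all such regions. With classes by raw counts 2.20% were, against 1.34% of all regions. The interaction count of 180 became 29 with DESeq2, 57 with 50% coverage, 116 with classes by raw counts, and 35 (without cortex replicate 1) to 319 (without cortex replicate 2) with 1 library left out.

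Same-numbered libraries did not deviate together (r = -0.0553 over 43735 regions), so the numbers were not taken to pair them. A fit with the replicate block gave 0 regions and 0 long genes between brain regions. In it 477 regions (9.05%, against 6.21% of all) and 44 genes (8.51%, against 6.86% of all) had an unadjusted p under 0.05. With 2 libraries per brain region, simulated 2-fold changes of regions were not recovered (0 of 100).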
